A study of Mus musculus with 8 samples.

Results

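The genes described here are 30 genes of the oligodendrocyte lineage, chosen by name as known genes of its stages. They comprise 6 genes of oligodendrocyte precursors, 2 transcription factor genes used along the whole lineage, 5 genes of committed precursors and newly formed oligodendrocytes, and 17 genes of myelinating cells. All 30 were among the 19558 genes listed and all 30 passed the filter on low counts, which left 15481 genes for testing. They were measured by poly(A)-selected, stranded RNA-seq of hippocampus from wild-type mice (strain label C57BL/6 KP) at postnatal day 40. The mice of the 4 KU55933 libraries received KU55933, a small-molecule blocker of the DNA damage kinase ATM. Those of the 4 vehicle libraries received 4% DMSO in saline. Both were given through the nose under anesthesia at a stated dose of 7.5 mg/kg. No other treatment or allele is given in the labels, and when the tissue was taken after dosing was not stated. The labels number 4 replicates per group without further detail, so the p-values measure the spread between these 8 libraries.

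Oligodendrocytes wrap axons of the central nervous system in myelin, the lipid-rich sheath that speeds conduction. They arise from dividing precursors marked by the PDGF receptor alpha and the NG2 proteoglycan, which persist in the adult brain, pass through a short-lived premyelinating stage marked by the receptor GPR17, and then switch on the genes of the myelin sheath under the transcription factor MYRF. In the mouse hippocampus myelination is still under way in the weeks after weaning.

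Library totals were 34190440 to 37499003 estimated counts in KU55933 and 40586998 to 46630341 in vehicle, and a member had between 71 counts (Bmp4) and 152877 counts (Mbp) in a library. The libraries differed in how counts depended on base composition. Per 10 percentage points of transcript GC content, log2 expression deviated from the mean of the libraries by -0.275, -0.344, -0.115 and -0.119 in KU55933 1 to 4, and by 0.134, 0.193, 0.269 and 0.256 in vehicle 1 to 4. Changes are therefore given as deposited and, for each of the 30 genes, also with an offset, a correction of each gene for the trends of the library on GC content and transcript length. The GC trend separates the groups, so a change that follows GC content and an effect of KU55933 on the same genes cannot be told apart. Choroid plexus markers were also uneven: the summed level of 10 such genes was 1921, 1796, 267 and 226 CPM (counts scaled to a common library size) in KU55933 1 to 4 and 169 to 335 CPM in vehicle. KU55933 1 and 2 thus stood apart in both measures, and results are also given without them where that matters.

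In every library the lineage was represented at all stages. Per kilobase of transcript, Mbp, which encodes myelin basic protein, had the highest level of the 30 genes, at 883 ± 257 CPM per kb in KU55933 and 1100 ± 392 CPM per kb in vehicle (mean ± SD, n = 4 each). Mobp, which encodes a second abundant myelin protein, followed at 299 ± 54.1 CPM per kb in KU55933 and 279 ± 118 CPM per kb in vehicle. Cnp, which encodes a phosphodiesterase of the myelin cytoplasm, stood next at 113 ± 15.9 CPM per kb in KU55933 and 126 ± 44.9 CPM per kb in vehicle. Below these 3, Mal, Trf, Cryab, Cldn11 and Mag lay between 60.9 and 107 CPM per kb in KU55933 and between 76.4 and 89.4 CPM per kb in vehicle, where they did not differ beyond their SD. Among the precursor genes Tnr was highest, at 30.8 ± 2.18 CPM per kb in KU55933 and 27.1 ± 1.47 CPM per kb in vehicle. At the low end were Susd5 and Bmp4, both between 1.11 and 1.37 CPM per kb in either group.

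In edgeR's quasi-likelihood test, with p-values adjusted over all 15481 genes by the Benjamini-Hochberg method, 4 of the 30 genes passed an adjusted p of 0.05. Of these 1 was higher in KU55933 (Lhfpl3) and 3 were lower (Olig1, Cspg4 and C1ql1). Over all genes tested 21.6% passed, made up of 6.92% of all genes that were higher and 14.6% that were lower. The 13.3% among the 30 is thus no larger than the background. The median log2 change was 0.08 over the 30 genes and 0.01 over all genes. The same 4 genes were the only ones of the 30 whose groups did not overlap, against 26.7% of all genes. With the offset none of the 30 passed, against 1.99% of all genes (0.691% higher and 1.3% lower). In that fit C1ql1 alone had an unadjusted p under 0.05, and the other tools, run without the offset, called 5 (DESeq2) and 4 (limma-voom) of the 30, against 28.6% and 20.7% of all genes. In bulk tissue, fewer cells of a type and less RNA per cell cannot be told apart.

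**Figure D1:**
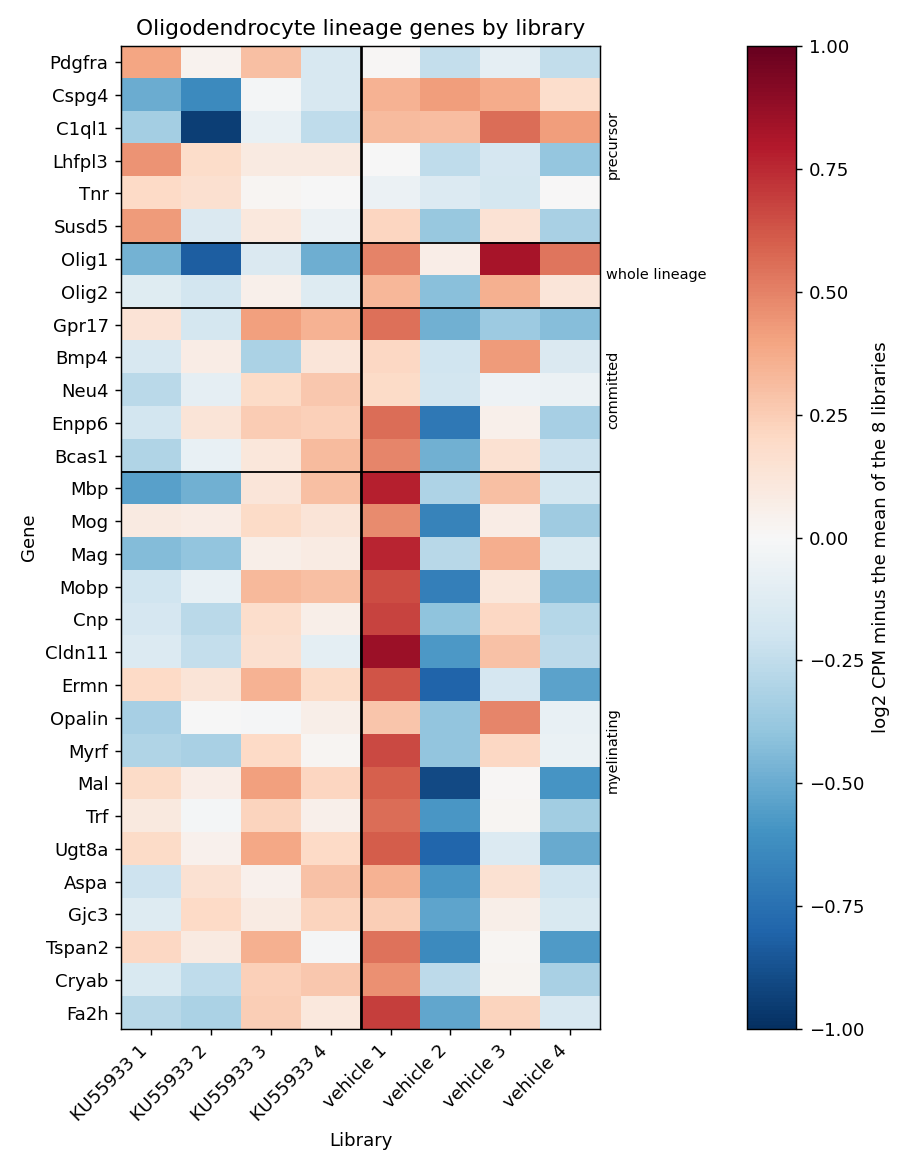
Heat map of the 30 genes (rows, ordered by stage) in the 8 libraries (columns, KU55933 left of vehicle). Colour is log2 CPM minus the gene's mean over the 8 libraries. The block of myelinating genes is red in vehicle 1 and blue in vehicle 2, while Olig1, Cspg4, C1ql1 and Lhfpl3 separate the groups.

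Olig1, a basic helix-loop-helix transcription factor of the whole lineage, had the largest change of the 30 without the offset. It was at 41.0, 32.2, 51.6 and 40.6 CPM in KU55933 1 to 4, against 80.2, 59.6, 101 and 82.5 CPM in vehicle 1 to 4. Every KU55933 library lay below every vehicle library. The log2 change was -0.97 ± 0.17 (SE, edgeR adjusted p = 0.00487), a 1.95-fold lower level, and -0.15 ± 0.13 with the offset (adjusted p = 0.585). Genes within 2 percentage points of its GC content (61.1%) had a median log2 change of -0.73 without the offset, and 78.2% of those 871 genes passed the test. Without KU55933 1 and 2 the change was -0.80 (adjusted p = 0.0613), and 6.24% of all genes were then called lower.

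Olig2, the partner factor that specifies the lineage and is needed in precursors, behaved differently. Its level was 16.2, 15.4, 18.1 and 16.0 CPM in KU55933, against 22.0, 13.2, 22.5 and 19.1 CPM in vehicle. The groups overlapped because vehicle 2 was the lowest library of all 8. Its log2 change was -0.22 ± 0.15 (SE, edgeR adjusted p = 0.308), and 0.30 ± 0.16 with the offset (adjusted p = 0.39). Without vehicle 2 it was -0.37 and passed (adjusted p = 0.0474), against 10.4% of all genes called lower in that fit. Without vehicle 1 it was -0.14 (adjusted p = 0.523). Genes near the GC content of Olig2, 58.5%, had a median log2 change of -0.48 over all 8 libraries, and 59.3% of them passed the test. The fall of Olig2 over all 8 libraries was smaller than that median.

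The 6 precursor genes did not move together. Cspg4, which encodes the surface proteoglycan NG2 and is also made by pericytes, was at 17.3, 15.8, 24.1 and 21.9 CPM in KU55933, against 31.2, 32.6, 31.7 and 27.7 CPM in vehicle. All KU55933 libraries were lower than all vehicle libraries. Cspg4 had a log2 change of -0.64 ± 0.13 (SE, edgeR adjusted p = 0.00716), and -0.15 ± 0.10 with the offset (adjusted p = 0.491). The summed level of 5 mural cell markers was 233 to 282 CPM in KU55933 and 223 to 282 CPM in vehicle, of which Rgs5 gave 119 to 163 CPM in KU55933 and 107 to 132 CPM in vehicle. Of these 5, the pericyte receptor gene Pdgfrb alone passed the test. It was at 26.9, 23.8, 31.5 and 23.9 CPM in KU55933, against 34.5, 36.9, 38.3 and 37.1 CPM in vehicle. Like Cspg4, it was lower in every KU55933 library, at a log2 change of -0.47 ± 0.10 (adjusted p = 0.00849), and -0.28 ± 0.09 with the offset (adjusted p = 0.146). The part of pericytes in the change of Cspg4 was not tested. Genes near the GC content of Cspg4, 58.6%, had a median log2 change of -0.49, and 59.8% of them passed the test. Cspg4 was the only one of the 4 genes that still passed without KU55933 1 and 2, at a log2 change of -0.42 (adjusted p = 0.0432). In that fit Olig1 (-0.80) and C1ql1 (-0.56) had larger changes and missed the threshold, with adjusted p of 0.0613 and 0.0569. With the offset as well, Cspg4 was at -0.02 (adjusted p = 0.946).

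C1ql1, which encodes a secreted C1q-domain protein used as a marker of precursors, was at 3.42, 2.25, 4.12 and 3.64 CPM in KU55933, against 5.40, 5.37, 6.37 and 5.80 CPM in vehicle. Again no KU55933 library reached the lowest vehicle library. Its log2 change was -0.77 ± 0.17 (SE, edgeR adjusted p = 0.0126). With the offset the direction turned, to 0.66 ± 0.17 (adjusted p = 0.0922). C1ql1 has the highest GC content of the 30 genes, 65.8%. The 73 genes tested within 2 percentage points of it had a median log2 change of -1.22, and 80.8% of them passed. The fall of C1ql1 was smaller than that median, and few genes define the trend at that end. Without KU55933 1 and 2 its change was -0.56 (adjusted p = 0.0569).

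Lhfpl3, a tetraspan-family gene enriched in precursors, was the only member called higher. It was at 25.6, 21.2, 19.9 and 19.9 CPM in KU55933, against 18.6, 15.7, 16.6 and 14.3 CPM in vehicle. The lowest KU55933 library was above the highest vehicle library. This gave a log2 change of 0.41 ± 0.11 (SE, edgeR adjusted p = 0.0274), and 0.20 ± 0.11 with the offset (adjusted p = 0.391). Genes near its GC content of 39.0% had a median log2 change of 0.24, and 26.9% of them passed the test. The call was lost when KU55933 1, KU55933 2, vehicle 2, vehicle 3 or vehicle 4 was left out, with adjusted p between 0.0568 and 0.0804.

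Pdgfra, the receptor through which PDGF drives precursor division, was at 79.0, 61.6, 74.0 and 53.7 CPM in KU55933, against 60.6, 50.9, 56.6 and 50.6 CPM in vehicle. KU55933 1 to 3 exceeded all 4 vehicle libraries and KU55933 4 did not. The log2 change of 0.29 ± 0.12 (SE) did not pass edgeR's test (adjusted p = 0.097). It passed when KU55933 4 was left out, at 0.39 (adjusted p = 0.0239, against 9.36% of all genes called higher), and was 0.15 ± 0.10 with the offset over all 8 libraries (adjusted p = 0.51). Tnr, which encodes the matrix protein tenascin-R and is also made by some interneurons, had a log2 change of 0.19 ± 0.07 (adjusted p = 0.0956), and 0.05 ± 0.06 with the offset. Susd5, a less studied precursor marker, had 0.16 ± 0.18 (adjusted p = 0.553), and 0.22 ± 0.18 with the offset. Summed over the 6 genes, precursor expression was 454 to 535 CPM in KU55933 and 428 to 459 CPM in vehicle, a sum in which Tnr is most of the total.

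**Figure D2:**
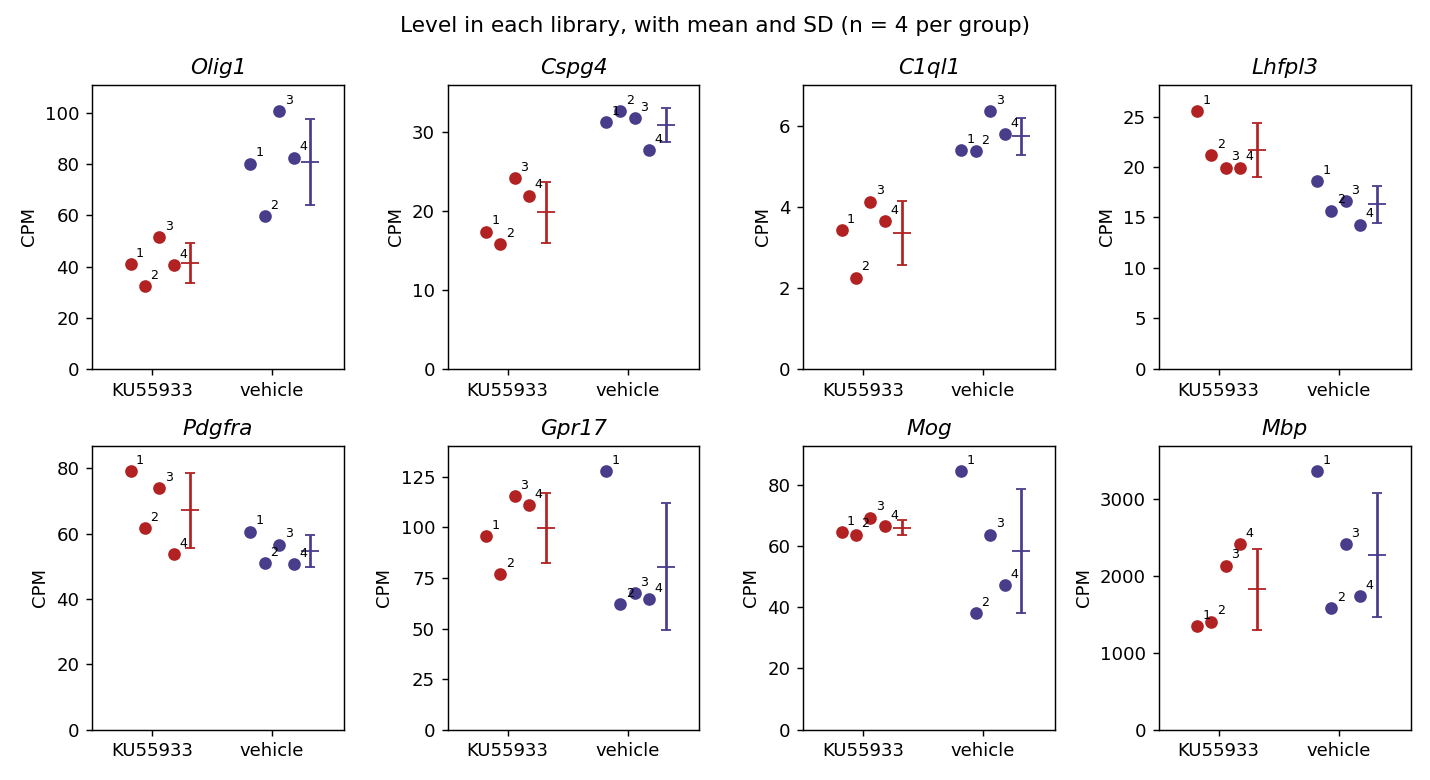
Level in CPM of 8 genes in each library (points, numbered by replicate), with group mean and SD (n = 4 per group), KU55933 left of vehicle. The groups are apart in the 4 upper panels and overlap in the 4 lower ones, where vehicle 1 is the highest point for Gpr17, Mog and Mbp.

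The base composition of the 4 called genes is shown by the middle 120 coding bases of full-length transcripts (5′ to 3′, GENCODE M21 sequences, all in lower case because no single part is marked).

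Olig1-201: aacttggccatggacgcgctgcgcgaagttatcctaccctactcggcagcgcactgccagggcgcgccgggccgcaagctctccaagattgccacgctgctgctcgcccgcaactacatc
C1ql1-201: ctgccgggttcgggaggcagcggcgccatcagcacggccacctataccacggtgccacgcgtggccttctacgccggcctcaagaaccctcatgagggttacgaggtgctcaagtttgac
Cspg4-201: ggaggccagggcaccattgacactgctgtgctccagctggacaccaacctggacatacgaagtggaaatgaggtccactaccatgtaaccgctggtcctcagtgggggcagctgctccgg
Lhfpl3-202: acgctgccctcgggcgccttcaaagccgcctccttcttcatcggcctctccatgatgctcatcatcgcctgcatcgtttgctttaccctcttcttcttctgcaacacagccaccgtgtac

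These windows held 65.0% G and C in Olig1, 64.2% in C1ql1, 60.0% in Cspg4 and 56.7% in Lhfpl3. Lhfpl3 stood out from the other 3 in that its coding region (57.5% GC) was far richer in G and C than the whole transcript printed here, Lhfpl3-202 (41.5%). That form held 35.1% of the gene's counts in KU55933 and 52.4% in vehicle, and Lhfpl3-201, with 37.0% GC, held the rest. Over the 30 genes GC content ran between 38.0% (Ermn) and 65.8% (C1ql1), with a median of 50.7%, close to the 50.2% of all genes tested. The 3 genes called lower were the 3 with the highest GC content, and the gene called higher had the second lowest.

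**Figure D3:**
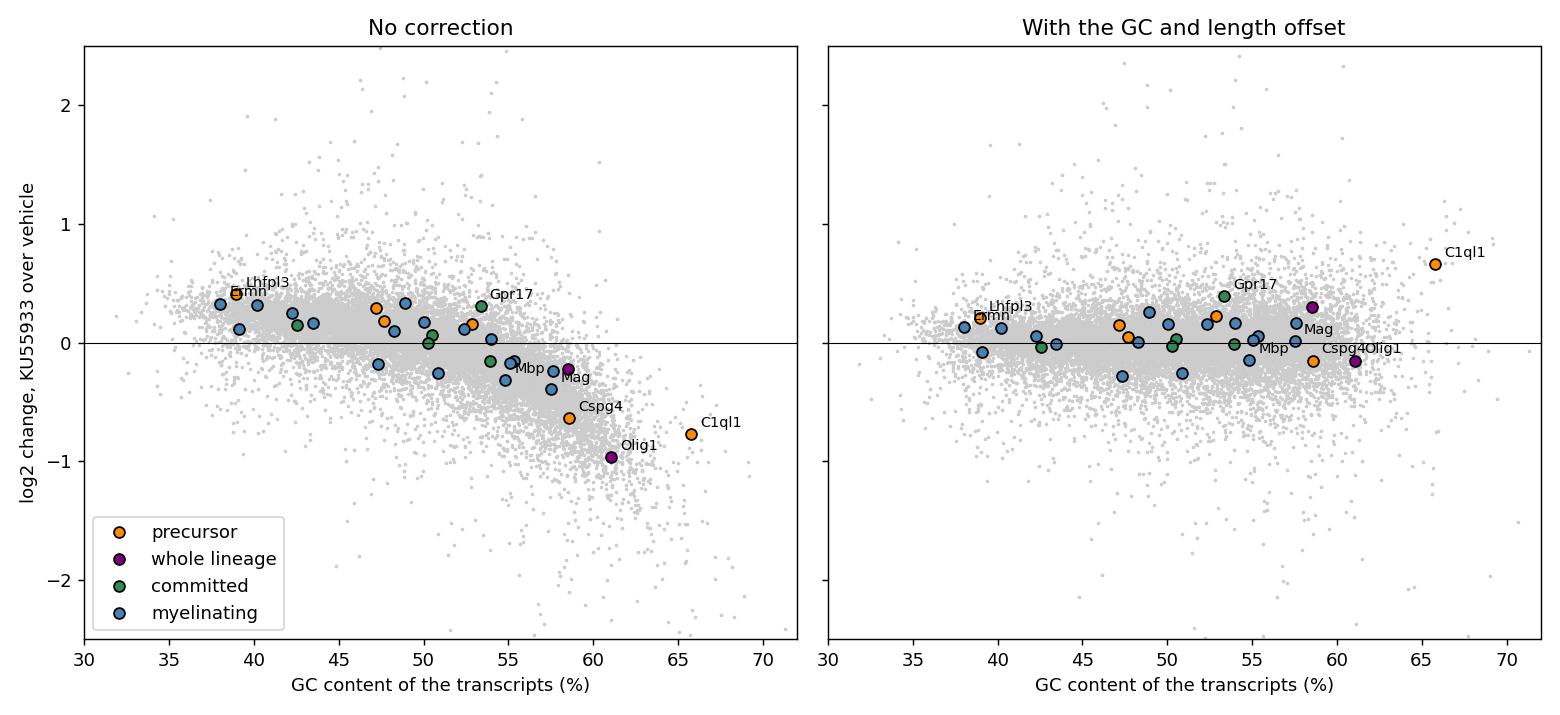
Log2 change of KU55933 over vehicle (vertical axis) against transcript GC content (horizontal axis, %) for all genes tested (grey) and the 30 lineage genes (coloured by stage), without correction (left) and with the GC and length offset (right). Axes leave out 33 genes on the left and 22 on the right. Without correction the lineage genes follow the downward slope of all genes, and with the offset C1ql1 stands at 0.66 while Olig1 and Cspg4 stand at -0.15.

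None of the 5 genes of committed precursors and newly formed oligodendrocytes passed the test, against 21.6% of all genes. Gpr17, the receptor that marks the premyelinating stage, was at 95.7, 77.0, 115 and 111 CPM in KU55933, against 128, 62.2, 67.7 and 64.6 CPM in vehicle. All 4 KU55933 libraries were above vehicle 2, 3 and 4, and vehicle 1 was above every other library. Over all 8 libraries the log2 change was 0.31 ± 0.24 (SE, edgeR adjusted p = 0.383), and 0.39 ± 0.24 with the offset (adjusted p = 0.464). Without vehicle 1 it passed in both fits, at 0.63 ± 0.13 (adjusted p = 0.00782) and 0.70 ± 0.12 with the offset (adjusted p = 0.0184). In those fits 11.5% and 2.26% of all genes were called higher. Leaving out the highest library raises the change of Gpr17 by construction. Without vehicle 2, the lowest library, and with no offset, the change was 0.20 (adjusted p = 0.633).

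Bcas1, a gene switched on as oligodendrocytes begin to myelinate, averaged 113 ± 20.6 CPM in KU55933 and 113 ± 33.2 CPM in vehicle (SD, n = 4 each). Enpp6, a choline phosphodiesterase used as a marker of newly formed cells, averaged 12.3 ± 1.63 CPM in KU55933 and 11.1 ± 4.23 CPM in vehicle. Neu4, a sialidase gene, averaged 11.6 ± 1.96 CPM in KU55933 and 11.2 ± 1.26 CPM in vehicle. Bmp4, a secreted ligand made at this stage, averaged 2.26 ± 0.318 CPM in KU55933 and 2.52 ± 0.522 CPM in vehicle. These 4 had log2 changes of -0.16 to 0.15, with SEs of 0.13 to 0.24. With the offset they were -0.03 for Bcas1, -0.04 for Enpp6, 0.03 for Neu4 and -0.01 for Bmp4.

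None of the 17 myelinating genes passed edgeR's test, against 21.6% of all genes, and none had an unadjusted p under 0.05. Neither DESeq2 nor limma-voom called any, against 28.6% and 20.7% of all genes. The log2 changes of the 17 ran between -0.39 (Mag) and 0.33 (Mal and Ermn), with a median of 0.10, and 0.06 with the offset. In all 17 the groups overlapped, while 26.7% of all genes had groups that did not. What varied was the level between single vehicle libraries: vehicle 1 had the highest level of all 8 libraries in 16 of the 17 genes, and vehicle 2 the lowest of the vehicle libraries in 16. The highest vehicle library exceeded the lowest 1.70 to 2.83 times, whereas among KU55933 libraries the ratio was 1.09 to 1.80. The median SD of log2 CPM within a group was 0.174 in KU55933 and 0.499 in vehicle over the 17 genes, against 0.171 in KU55933 and 0.133 in vehicle over all genes tested.

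Mbp was at 1342, 1405, 2131 and 2409 CPM in KU55933, against 3354, 1575, 2410 and 1736 CPM in vehicle. KU55933 1 and 2, the libraries with the steepest GC slope, were below all others, while vehicle 1 stood well above them. The log2 change was -0.32 ± 0.27 (SE, edgeR adjusted p = 0.43), -0.15 ± 0.27 with the offset, and 0.00 without KU55933 1 and 2.

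Mog, which encodes a glycoprotein of the outermost myelin layer, was at 64.6, 63.8, 69.3 and 66.6 CPM in KU55933, against 84.4, 38.2, 63.8 and 47.4 CPM in vehicle. The KU55933 values spanned 1.09-fold and the vehicle values 2.21-fold. The log2 change was 0.18 ± 0.21 (adjusted p = 0.572), and 0.16 ± 0.22 with the offset. Mag, an adhesion molecule of the innermost layer that faces the axon, was at 109, 112, 153 and 156 CPM in KU55933, against 250, 121, 189 and 133 CPM in vehicle. Its log2 change of -0.39 ± 0.23 (adjusted p = 0.255) became 0.01 ± 0.23 with the offset. Cnp was at 269, 251, 341 and 315 CPM in KU55933, against 485, 229, 349 and 248 CPM in vehicle. The change was -0.16 ± 0.23 (adjusted p = 0.647), and 0.06 ± 0.24 with the offset. In all 4 of these genes vehicle 1 was the highest library.

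The other 13 myelinating genes showed the same order of vehicle libraries with few exceptions. Opalin, which encodes a membrane glycoprotein of the sheath, was the one gene in which vehicle 3 (30.2 CPM) rather than vehicle 1 (26.1 CPM) was highest. Mal, a proteolipid of myelin membranes, averaged 298 ± 30.1 CPM in KU55933 and 237 ± 111 CPM in vehicle (SD, n = 4 each), where it spanned 2.83-fold between vehicle libraries. Cldn11, which forms the tight junctions of the sheath, averaged 127 ± 15.5 CPM in KU55933 and 152 ± 68.0 CPM in vehicle. Myrf, the regulator that turns on myelin genes, averaged 49.7 ± 8.88 CPM in KU55933 and 58.6 ± 18.5 CPM in vehicle. Among the enzyme genes, the log2 changes were 0.32 ± 0.27 for Ugt8a (galactosylceramide synthesis), -0.17 ± 0.25 for Fa2h (hydroxylation of myelin fatty acids) and 0.11 ± 0.19 for Aspa (breakdown of N-acetylaspartate). Gjc3, a gap junction gene, had 0.17 ± 0.15, Tspan2, a tetraspanin, 0.25 ± 0.24, Ermn, a cytoskeletal protein, 0.33 ± 0.27, and Cryab, a small heat shock protein, 0.03 ± 0.19. Mobp had 0.10 ± 0.27. Trf, which encodes the iron carrier transferrin and is made by choroid plexus as well as oligodendrocytes, was at 231 and 213 CPM in the 2 KU55933 libraries high in choroid plexus markers and at 252 and 223 CPM in the other KU55933 libraries. It averaged 230 ± 16.3 CPM in KU55933 and 213 ± 77.1 CPM in vehicle. With the offset, the log2 changes of these 13 genes ran between -0.28 (Opalin) and 0.26 (Mal), and were -0.26 for Cldn11, 0.17 for Cryab, 0.16 for Myrf, 0.15 for Trf, 0.13 for Ermn, 0.12 for Ugt8a and -0.08 for Aspa. Those of Tspan2 (0.06), Fa2h (0.02), Gjc3 (-0.02) and Mobp (0.01) were nearer to 0.

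Leaving out vehicle 1 brought 4 myelinating genes past the threshold as higher in KU55933: Ermn at a log2 change of 0.70, Mal at 0.68, Ugt8a at 0.67 and Tspan2 at 0.54, with edgeR adjusted p between 0.00548 and 0.0371. Together with Gpr17 and Lhfpl3 that made 6 members called higher, against 11.5% of all genes. With the offset and without vehicle 1, none of these 4 passed, at log2 changes of 0.48 for Ermn, 0.60 for Mal, 0.45 for Ugt8a and 0.32 for Tspan2 (adjusted p between 0.0946 and 0.287). The members called higher in that fit were Gpr17 and C1ql1 (0.75). Vehicle 1 was the highest of the 8 libraries for Ermn, Mal, Ugt8a and Tspan2, so leaving it out raises their change by construction. Without vehicle 2, the lowest library for these 4, and with no offset, none of them passed. The log2 changes were then 0.16 for Ermn, 0.14 for Mal, 0.14 for Ugt8a and 0.10 for Tspan2 (edgeR adjusted p between 0.700 and 0.801).

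Summed over the 17 genes, myelinating expression was 3580, 3629, 4966 and 5051 CPM in KU55933, against 7006, 3137, 4972 and 3553 CPM in vehicle. The committed-stage sum followed a like order in vehicle, at 207, 207, 263 and 278 CPM in KU55933 and 315, 160, 216 and 182 CPM in vehicle. The difference between precursor and myelinating genes, as mean log2 CPM per kb, was -3.05 ± 0.20 in KU55933 and -2.91 ± 0.40 in vehicle (SD, n = 4 each). The groups differed by -0.14, which is smaller than the within-group SD of 0.317. The lowest value of all was -3.42 in vehicle 1 and the highest -2.48 in vehicle 2, so the spread within vehicle enclosed all 4 KU55933 values.

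**Figure D4:**
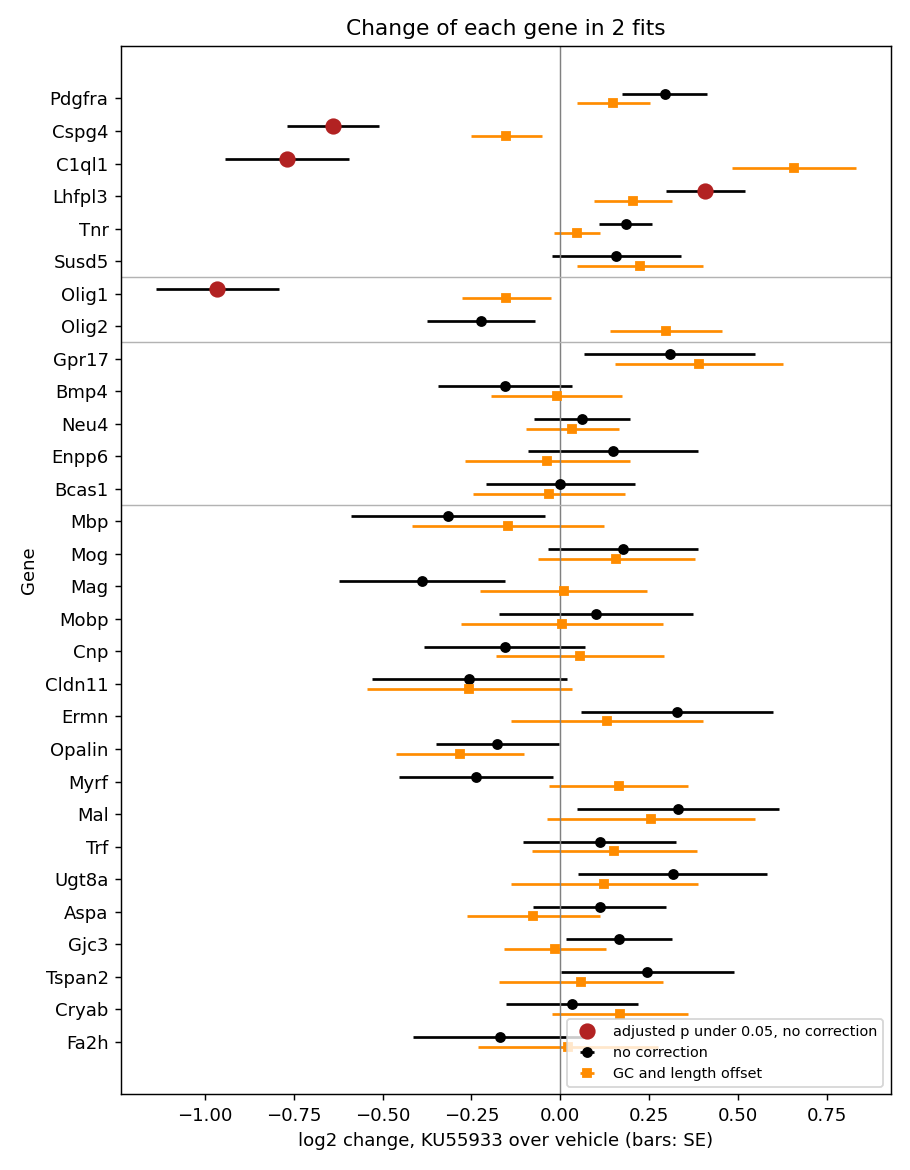
Log2 change of KU55933 over vehicle (horizontal axis, bars are SE) for each of the 30 genes, without correction (circles, red where the adjusted p was under 0.05) and with the GC and length offset (squares). The offset moves Olig1, Cspg4 and C1ql1 to the right and Lhfpl3 to the left, and the myelinating genes lie between -0.39 and 0.33 without the offset.

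The promoters of the members were searched for the MYRF motif CTGGCAC on both strands. It was found in 3 of the 12 myelinating genes that have an entry in the promoter table (Cnp, Mag and Opalin), and in 3 of 21 members in all. Of all 32851 promoters of the same length, 300 bases, 5.01% held it, and 5.73% of all genes had it in at least 1 promoter. The motifs CAGCTG, an E-box bound by helix-loop-helix factors such as the OLIG proteins, and ACAAAG, bound by SOX factors, were in 3 and 6 of the 21 member genes and in 16.3% and 18.7% of all promoters, or 18.3% and 21.0% of all genes. CAGCTG and CTGGCAC can share the letters CTG. A match describes the letters in this window and says nothing of binding or of differences between libraries, and the counts of matches were not tested. The promoters of Mag (chr7:30914814-30915113, minus strand) and Cnp (chr11:100574689-100574988, plus strand) are printed 5′ to 3′ on the gene's strand from RefSeq, build GRCm38.p6, with the MYRF motif in capitals. It begins at base -81 from the start site in Cnp. In Mag it begins at base -68 from the start site of the printed promoter and at base -9 from another annotated start site.

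Mag promoter: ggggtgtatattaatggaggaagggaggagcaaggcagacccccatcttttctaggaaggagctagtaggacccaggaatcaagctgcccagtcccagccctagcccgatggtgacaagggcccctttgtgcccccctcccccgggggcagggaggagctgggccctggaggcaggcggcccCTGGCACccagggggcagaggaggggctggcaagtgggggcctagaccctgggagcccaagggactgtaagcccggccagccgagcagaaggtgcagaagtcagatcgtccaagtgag
Cnp promoter: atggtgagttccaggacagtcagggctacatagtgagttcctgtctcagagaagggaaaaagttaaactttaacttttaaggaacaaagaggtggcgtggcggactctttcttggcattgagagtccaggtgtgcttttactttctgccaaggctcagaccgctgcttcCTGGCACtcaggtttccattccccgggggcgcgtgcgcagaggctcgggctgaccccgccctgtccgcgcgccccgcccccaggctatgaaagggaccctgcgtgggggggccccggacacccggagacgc

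The deposited values were per transcript, which allowed the forms of each gene to be followed. Of 113 transcripts of the 30 genes 84 were tested, and 3 (3.57%) passed edgeR's test adjusted over 45343 transcripts, against 6.76% of all transcripts. Olig1-201, the single transcript of Olig1, had a log2 change of -0.99 (adjusted p = 0.0169). Lhfpl3-201, a form whose annotated start lies inside the coding region of the full-length one, was at 17.1, 13.4, 13.8 and 11.7 CPM in KU55933, against 9.24, 7.03, 7.16 and 7.89 CPM in vehicle. Its log2 change was 0.84 ± 0.16 (adjusted p = 0.0181), while Lhfpl3-202, the full-length form, had -0.21 ± 0.19 (adjusted p = 0.621). The rise of Lhfpl3 was thus assigned to the first form. Myrf-202, a minor form, was at 0.649, 1.14, 2.83 and 1.15 CPM in KU55933, against 10.6, 3.64, 8.57 and 4.32 CPM in vehicle, with a log2 change of -2.23 ± 0.53 (adjusted p = 0.0437). The main form Myrf-201 had -0.14 ± 0.22 (adjusted p = 0.811). With the offset only C1ql1-201 passed among the members' transcripts, at 1.12 ± 0.21 (adjusted p = 0.0374), against 2.06% of all transcripts. Lhfpl3-201 was then at 0.82 ± 0.28 (adjusted p = 0.225), close to its value without the offset but with a wider SE, Myrf-202 at -1.49 ± 0.47 (adjusted p = 0.18) and Olig1-201 at 0.17 ± 0.14 (adjusted p = 0.66). C1ql1 and Olig1 each have a single listed transcript, which holds the same counts as the gene. In the fit over genes their changes with the offset were 0.66 and -0.15. The corrected values of these genes thus depended on whether the fit ran over genes or transcripts. Estimated counts of forms that share most of their sequence are divided by the authors' quantification and are less certain than gene sums. The 3 calls without the offset fell to 0 when KU55933 2 or vehicle 3 was left out, and to 1 without KU55933 1 or vehicle 4.

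Mag has a 45-base alternative exon, exon 12 of the 13 in its S-MAG transcript, that carries an in-frame stop codon and so gives the short cytoplasmic tail of S-MAG. Skipping it gives L-MAG, the form that dominates early in myelination. The exon is printed from GENCODE M21 with the stop codon in capitals.

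Mag exon 12: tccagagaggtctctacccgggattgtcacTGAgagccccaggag

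Transcripts without this exon made up 28.1, 31.4, 33.2 and 33.9% of the Mag counts of the 2 types in KU55933, against 30.7, 26.8, 28.1 and 23.5% in vehicle. The groups overlapped, with means of 31.7 ± 2.59% in KU55933 and 27.3 ± 2.98% in vehicle (SD, n = 4 each).

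Mbp has a second, upstream start that gives the golli transcripts, which are made also in precursors and in neurons, while the downstream start gives the classic myelin forms. Golli transcripts (4 forms) were at 99.7, 94.6, 119 and 106 CPM in KU55933, against 126, 89.8, 93.2 and 91.4 CPM in vehicle. Classic transcripts (10 forms) were at 1253, 1295, 2020 and 2228 CPM in KU55933, against 3363, 1533, 2329 and 1608 CPM in vehicle. Across the 8 libraries golli spanned 1.41-fold and the classic forms 2.68-fold. The classic forms held 92.6 to 96.4% of the Mbp counts, so the level of Mbp largely follows them by construction. The golli share was 7.37, 6.81, 5.57 and 4.54% in KU55933 and 3.62, 5.53, 3.85 and 5.38% in vehicle.

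**Figure D5:**
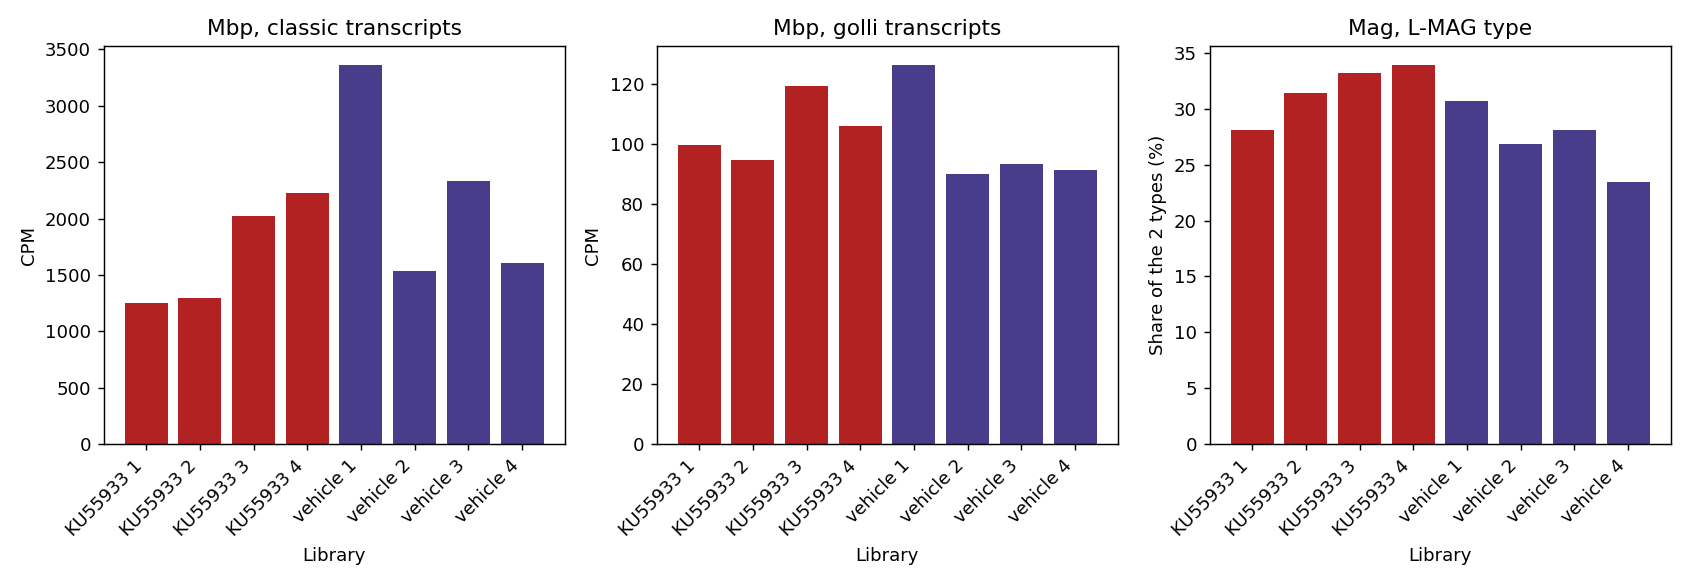
Bars by library (KU55933 in red left of vehicle in dark blue) for the classic Mbp transcripts (CPM), the golli Mbp transcripts (CPM) and the share of Mag counts without the 45-base exon (%). Classic Mbp varied 2.68-fold across libraries and golli 1.41-fold, and the Mag shares of the groups overlap.

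Beyond the 30 genes, 110 other genes tied to the lineage were read from the same fit in 7 lists, of which 6 were called higher and 17 lower, and 1 with the offset. The 20.9% called is close to the 21.6% of all genes, so these counts are near the background. The 1 of 110 that passed with the offset is no larger a share than the 1.99% of all genes. In the list of 11 further precursor genes 1 was higher and 3 lower: Ptprz1, a receptor phosphatase, at a log2 change of 0.35 (0.15 with the offset), Cspg5 (neuroglycan C) at -0.31 (-0.15 with it), Matn4 (matrilin 4) at -0.80 (-0.48) and Nkx2-2, a homeodomain factor, at -0.71 (-0.42). Of 12 differentiation genes 1 was higher and 2 lower. They were Tcf7l2, a Wnt effector needed for maturation, at 0.82 (0.68 with the offset), Sox10, the lineage factor that works with MYRF, at -0.82 (0.05, the direction turned), and Nkx6-2 at -1.52 (-0.30). Tcf7l2 is also made by thalamic neurons. It was at 13.2, 8.76, 6.49 and 12.2 CPM in KU55933 and 5.09 to 7.46 CPM in vehicle, while 5 markers of subcortical neurons summed to 119, 121, 89.3 and 122 CPM in KU55933 and 85.1 to 96.9 CPM in vehicle. Of these 5, Slc17a6 alone passed the test, at 1.28 (edgeR adjusted p = 0.0112), and 1.08 with the offset (adjusted p = 0.0635). It was at 12.3 to 21.7 CPM in KU55933 and 4.39 to 10.9 CPM in vehicle. Prkcd, Lef1, Plekhg1 and Lhx9 did not pass. The part of subcortical neurons in the change of Tcf7l2 was not tested.

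Of 31 further myelin sheath genes 1 was higher, Omg at 0.24 (0.05 with the offset), and 2 were lower, among them Ppp1r14a at -1.54 (-0.69). The other 28 did not pass, and vehicle 1 was the highest vehicle library in 25 of the 31. Of 14 genes of myelin lipid metabolism 1 was higher, Sgms1, for sphingomyelin synthesis, at 0.46 (0.28 with the offset), and 2 were lower. These were Gal3st1, for sulfatide synthesis, at -0.92 (-0.27) and Arsa, for sulfatide breakdown, at -0.31 (0.05, the direction turned). Of 18 genes of growth factor and inhibitory signals 6 were lower and none higher, among them Lingo1 at -0.87 (-0.37 with the offset) and the Nogo receptor gene Rtn4r at -1.39 (-0.38), both neuronal partners that restrain myelination or axon growth, and Notch1 at -0.70 (-0.36). Pdgfa, the ligand of Pdgfra, was at 16.5, 15.0, 18.7 and 20.2 CPM in KU55933, against 25.0, 24.3, 27.9 and 25.6 CPM in vehicle. All KU55933 libraries were lower, and its log2 change of -0.55 ± 0.10 (edgeR adjusted p = 0.005) was the only one of the 110 to pass with the offset, at -0.43 ± 0.08 (adjusted p = 0.0313). Over all genes 1.99% passed with the offset. Of 12 BMP pathway genes, whose signals hold precursors back, Id4 at 0.31 (0.11 with the offset) and Bmpr1a at 0.36 (0.15) were higher and none lower. Of 12 genes of the axonal node and paranode, Sptbn4 at -1.06 (0.09 with the offset, the direction turned) and Cntnap1 at -0.29 (-0.02) were lower and none higher.

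Markers of the other cell types in hippocampus were read alongside. Astrocyte markers (8 genes) summed to 4235 to 5906 CPM in KU55933 and 4426 to 5488 CPM in vehicle, and microglia markers (9 genes) to 320 to 400 CPM in KU55933 and 364 to 425 CPM in vehicle. Both sums overlapped between groups. Of these markers 4 passed the test, all lower, against 14.6% of all genes called lower. They were Gfap at a log2 change of -0.43 (-0.22 with the offset), Fgfr3 at -0.39 (-0.13), C1qa at -0.50 (0.13, the direction turned) and C1qc at -0.77 (-0.34). None of them passed with the offset. Of 6 neuron markers 4 were lower, against 14.6% of all genes. They were Rbfox3 at -0.85 (-0.42 with the offset), Camk2a at -0.29 (-0.22), Slc17a7 at -0.33 (0.14, the direction turned) and Tubb3 at -0.45 (0.00). Snap25 at 0.06 (-0.11) and Syt1 at 0.15 (-0.01) did not pass. GC content was 53.3 to 58.0% in the 4 called markers, 43.6% in Snap25 and 45.9% in Syt1. With the offset Rbfox3 alone of the 6 passed (edgeR adjusted p = 0.0114), against 1.99% of all genes. Hippocampal neuron genes Prox1, Wfs1, Fibcd1 and Neurod6, a set picked after values were seen, summed to 553 to 575 CPM in KU55933 and 597 to 696 CPM in vehicle, so that here every KU55933 library was lower. Of these 4 only Wfs1 passed the test, at -0.81 (-0.38 with the offset), and without it the sums overlapped, at 485 to 517 CPM in KU55933 and 490 to 558 CPM in vehicle. The summed level of 6 hypothalamic peptide genes was 0.338 to 16.9 CPM in KU55933 and 0.705 to 3.30 CPM in vehicle. Most of it in KU55933 was Trh, named after its values were seen, at 7.52, 16.4, 3.09 and 0.197 CPM in KU55933 and 0.175 to 0.620 CPM in vehicle, with a log2 change of 4.30 ± 1.12 (edgeR adjusted p = 0.0332), and 4.56 ± 1.16 with the offset (adjusted p = 0.11). Its groups overlapped because of KU55933 4. Avp, of the same 6 genes, was called in the other direction, at a log2 change of -2.46 ± 0.75 (edgeR adjusted p = 0.0438). With the offset Avp was at -1.06 ± 0.79 (adjusted p = 0.544). The level of Avp was at most 0.293 CPM in KU55933 and 0.219 to 1.64 CPM in vehicle, so its groups overlapped too.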

How the data were processed

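Hippocampal RNA libraries (TruSeq Stranded mRNA), 4 KU55933 and 4 vehicle, were grouped as the labels state. The extraction text gives RNA inputs for hypothalamus and PFC, while every sample is labelled hippocampus. The deposited values are expected counts, estimated by the authors for each transcript with Salmon 1.4.0 and given as whole numbers, per the submitters' processing notes. Those notes also list DESeq2 1.32.0, FastQC 0.11.9 and the build GRCm39. The rounding step is not given in the sources used here.

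Counts of 74764 transcripts were summed to 19558 genes by gene identifier, and 12 rows (0.0381% of counts) had no symbol. GC content and length came from GENCODE M21 transcripts (GRCm38), which matched 99.7% of transcripts. Genes were filtered with filterByExpr, scaled by TMM and tested with edgeR 4.0.16 (R 4.3.3, limma 3.58.1) by its robust two-sided quasi-likelihood F test. P-values were adjusted by the Benjamini-Hochberg method, at a threshold of 0.05. CPM divide counts by the TMM-scaled library size, and a prior count of 2 was added for log2 CPM. The offset took each library's spline trend on GC content (6 degrees of freedom) and log length (5 degrees of freedom). Promoters came from RefSeq (GRCm38.p6). The fits were tested on simulated data. Libraries of a group differed by more than sampling noise (chi-square per degree of freedom at least 14.6), so none was counted as a duplicate.

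Alternatives were other scalings and filters, DESeq2 1.42.0, limma-voom, a replicate block, an adjusted p of 0.1 and libraries left out. The 30 members and all lists were chosen with earlier results of these data known. Named outside the 30 were at most 4 called genes of each list, by smallest p; some genes or lists that met this rule are not reported here. Scripts ran in Python 3.11.15 with NumPy 2.4.6, pandas 2.3.3 and, for plots, matplotlib 3.10.9.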

Additional observations from a re-analysis of the deposited data

Results flagged for a closer look

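Gpr17 in vehicle 1, at 128 CPM, was far from the other 3 vehicle libraries, which lay at 62.2 to 67.7 CPM. The gap to the nearest of them was 0.916 of the group's range, above Dixon's critical value of 0.829 for 4 samples. Of 60 gene and group combinations this was the only one to stand out in this way, and chance gives about 1 in 20 groups.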

How the results depend on the processing

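Without any correction 1 member was called higher and 3 lower, and the 3 lower calls held under RLE and upper-quartile scaling, both filters, non-robust dispersion, DESeq2, limma-voom and each library left out in turn. With the offset all 4 calls were lost. Members called higher were 0 and lower 0 with the GC and length offset and with the GC offset alone. C1ql1, at -0.88 to -0.62 with a library left out, turned to 0.66 with the GC and length offset, 0.64 with the GC offset, 0.55 to 0.76 with the offset and a library left out, and 0.76 with the offset and without KU55933 1 and 2, an alternative chosen after seeing the data, which called 0 members in either direction. Without KU55933 1 and 2 and with no offset, 0 members were higher and 1 lower. With single libraries left out 0 to 6 members were higher and 3 to 4 lower, and with the offset 0 to 2 higher and 0 lower. DESeq2 called 2 members higher and an adjusted p of 0.1 called 3. Over all genes, 1071 were higher and 2267 lower. Higher counts were 692 with no filter, 1840 with DESeq2, 2172 at an adjusted p of 0.1, 107 with the GC and length offset, 78 with the GC offset, 105 without KU55933 1 and 2 and 4 with the offset as well, and 151 to 1790 with a library left out (24 to 352 with the offset). Lower counts were 201 with the GC and length offset, 153 with the GC offset, 985 without KU55933 1 and 2 and 30 with the offset as well, and 1446 to 2558 with a library left out (52 to 394 with the offset). Member transcripts called numbered 3, against 1 with the offset, 5 at an adjusted p of 0.1, 5 with a filter of 1 CPM in 4 libraries, and 0 to 4 with a library left out. The difference between precursor and myelinating genes moved by less than the within-group SD in all alternatives run, between -0.31 and 0.09. Of 768 comparisons of uncalled members with their value in the uncorrected fit, 124 had the opposite sign, in 20 members. The cause of these changes was not tested.

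Replicate numbers are shared between groups, but the deviations of same-numbered libraries correlated by 0.294, 0.084, 0.0393 and 0.202 for replicates 1 to 4, so the numbers were not taken to pair the samples. With the replicate block 1720 genes were higher, 2 members were higher (Lhfpl3, and Pdgfra at 0.28) and 3 lower, and 2 transcripts were called. With the GC and length offset and the block 361 genes were higher and 460 lower, 0 members passed in either direction, and C1ql1 stood at 0.68. KU55933 1 and 4 correlated best with their own number and KU55933 2 and 3 did not.

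The lowest count of a member in a library was 71 (Bmp4). The number of libraries, 4 a group, limits precision for every member.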
